A study of Rattus norvegicus with 30 samples.

Results

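Irf1, Gbp2, Irgm2, Psmb8, Psmb9, Tap1 and B2m, 7 genes that interferon gamma induces or that prepare peptides for class I antigen presentation, were followed through cardiac preconditioning in rats. They were found by symbol in the array's probe-to-gene table, which gave 10 probe sets of 8740 that are not controls, and 7 genes of 4736. Irf1, Psmb9 and Tap1 have 2 probe sets each and the others 1. The genes were chosen by their differences from control hearts on these arrays, so those differences are described below without a test. Of the 10 probe sets, 9 passed the filter on low signal and were fitted, and for each gene the probe set with the higher mean signal stands for it.

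Total RNA from the left ventricle was hybridised to Affymetrix arrays, 30 in all, with 5 biological replicates in each of the 6 protocol groups. CTL hearts were the controls and ISCH hearts underwent ischaemia without preconditioning. IPC stands for ischaemic and APC for anaesthetic preconditioning, and IPC_TRI and APC_TRI for the trigger of each kind alone. In preconditioning, a mild stimulus ahead of a damaging ischaemia limits the injury, and a trigger group received that stimulus only. The tissue and species are shared by all 6 groups. The sources used here give no strain, age, sex, anaesthetic or duration, and do not say whether any array pools animals. If replicates are not separate animals, the p-values measure only the spread between these samples.

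Interferon gamma binds a receptor that signals through the JAK kinases, and the signal reaches gamma-activated sites in target promoters. Irf1 is a transcription factor made early in that response, and it drives a second set of genes through interferon-stimulated response elements. Gbp2 and Irgm2 encode GTPases that act on the membranes around intracellular microbes. Psmb8 and Psmb9 encode proteolytic subunits of the immunoproteasome, which replace subunits of the standard proteasome and change which peptides are cut. Tap1 is a chain of the transporter that moves those peptides into the endoplasmic reticulum, where they are loaded on class I molecules, whose light chain is B2m. In heart muscle these genes are known to respond to inflammation and infection.

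To show the letters around their starts, the genes' promoters were read from RefSeq windows on the GRCr8 assembly, 250 bases before to 50 after each gene's start, and all 7 genes had one. Each window was searched on both strands for the gamma-activated site TTCNNNGAA, the interferon-stimulated response element core (GAAA, then 2 bases of any kind, then GAAA) and the kappaB motif. The stretches are printed 5′ to 3′ on the gene's strand, and capitals mark the matches. Positions are counted from the start that RefSeq's window is built on, which for Irgm2, Psmb8, Psmb9 and B2m is not the outermost base of the gene as annotated. The first 3 are shown because they belong to the transcription factor and the GTPase genes. On the probe set that stands for each gene, these had the largest differences of ISCH, IPC and APC from CTL. Irf1 lies on chromosome 10 (38417935 to 38424946), Gbp2 on chromosome 2 (234005727 to 234021812) and Irgm2 on chromosome 10 (42889919 to 42900060).
Irf1, chr10:38417685-38417934, plus strand: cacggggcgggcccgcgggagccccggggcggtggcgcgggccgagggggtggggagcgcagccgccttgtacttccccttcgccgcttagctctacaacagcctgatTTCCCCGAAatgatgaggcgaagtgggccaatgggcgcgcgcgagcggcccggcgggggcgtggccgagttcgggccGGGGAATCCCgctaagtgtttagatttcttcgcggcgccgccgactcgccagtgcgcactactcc
Gbp2, chr2:234005477-234005726, plus strand: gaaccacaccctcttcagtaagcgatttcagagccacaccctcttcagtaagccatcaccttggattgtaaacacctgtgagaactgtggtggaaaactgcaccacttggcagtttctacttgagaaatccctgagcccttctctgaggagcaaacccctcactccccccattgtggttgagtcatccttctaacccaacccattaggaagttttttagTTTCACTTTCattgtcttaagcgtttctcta
Irgm2, chr10:42889720-42889918, plus strand: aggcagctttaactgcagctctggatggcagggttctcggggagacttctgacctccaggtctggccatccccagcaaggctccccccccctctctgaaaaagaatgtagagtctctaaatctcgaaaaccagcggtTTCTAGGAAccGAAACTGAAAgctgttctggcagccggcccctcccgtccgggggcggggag
The Irf1 window holds a gamma-activated site (TTCCCCGAA, at -142 from the start) and a kappaB match (GGGGAATCCC, at -65). In the Gbp2 window the response element core lies on the opposite strand, and the printed strand reads TTTCACTTTC there, at -31. The Irgm2 window holds a gamma-activated site (TTCTAGGAA, at -113) and a response element core (GAAACTGAAA, at -102) separated by 2 bases.

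The other matches are shown with the bases around them, because they fall in the antigen processing genes. Psmb8 (4654068 to 4657049), Tap1 (4658171 to 4668543) and Psmb9 (4668952 to 4674421) are neighbours on chromosome 20, and B2m is on chromosome 3 (129549236 to 129555354).
Psmb8, chr20:4657026-4657060, minus strand: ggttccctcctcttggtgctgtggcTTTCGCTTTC
Tap1, chr20:4668630-4668689, minus strand: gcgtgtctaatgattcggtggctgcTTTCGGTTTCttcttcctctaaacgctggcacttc
B2m, chr3:129549155-129549214, plus strand: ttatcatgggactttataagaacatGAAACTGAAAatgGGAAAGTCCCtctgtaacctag
Psmb8 also has a gamma-activated site (TTCCCAGAA) at -245, and Tap1 a kappaB match (GGGACTTTCC) at -55, both outside the printed stretches. The printed Psmb8 stretch reaches into the gene as annotated. Tap1 and Psmb9 point away from each other with starts 457 bases apart, and their windows share 44 bases. The Psmb9 window held none of the 3 motifs. The Tap1 response element core and kappaB match lie between the starts of Tap1 and Psmb9, outside the Psmb9 window. Among all 33469 RefSeq rat windows of this length, 8.87% held the gamma-activated site, against 3 of the 7 (Irf1, Irgm2, Psmb8). The response element core was in 3.92% of all windows and in 5 of the 7 (Gbp2, Irgm2, Psmb8, Tap1, B2m), and the kappaB motif in 7.51% and in 3 of the 7 (Irf1, Tap1, B2m). A match is a run of letters, not a measured binding site.

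The deposited signals are linear intensities scaled to the same trimmed mean, 501, and their medians ran from 114.6 to 189.2 over the arrays. Replicates were less alike in IPC_TRI (mean correlation within the group 0.884) than in the other groups (0.936 to 0.961). The log2 ratio of the beta-actin 3′ to 5′ control probe sets, a measure of RNA integrity, was -0.46 ± 0.37 (SD, n = 5) in IPC_TRI and -0.36 ± 0.28 in APC_TRI, and lay between 0.04 and 0.34 in the other groups. Bacterial spike signal on the log2 scale was 12.0 ± 0.61 in ISCH and 10.8 ± 0.69 in CTL. The 7 of 8 cardiomyocyte markers on the array summed to 126129 or more on every array, and none was at 0, which fits the labelled tissue. The number of arrays, 5 a group, limits the precision of every value below.

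**Figure D1:**
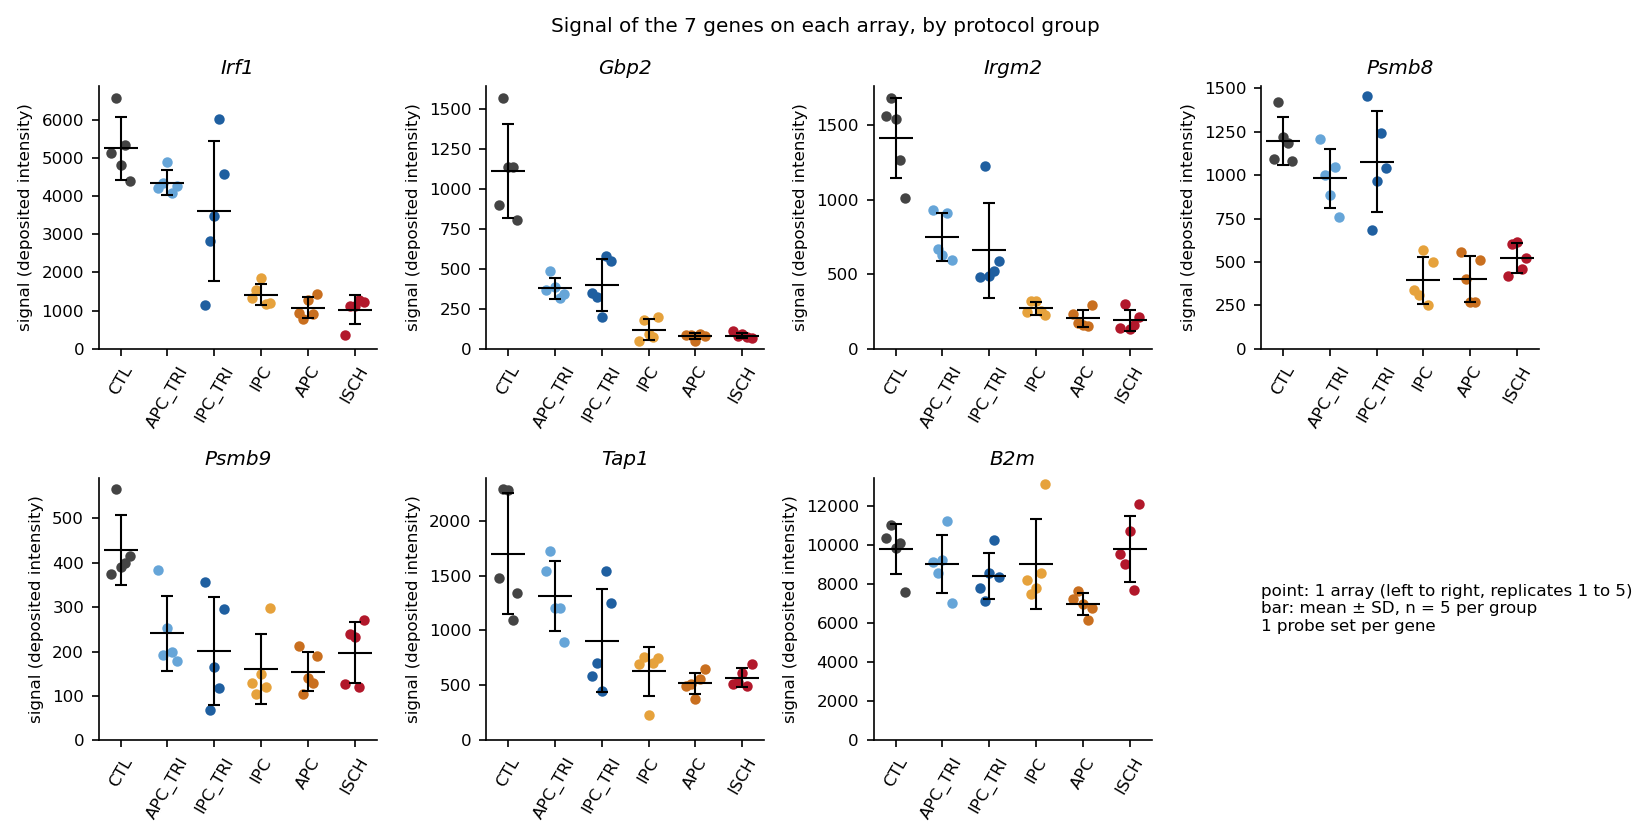
Deposited signal (vertical axis, linear intensity from 0) of each of the 7 genes on every array, by protocol group (horizontal axis); points are arrays and bars the mean ± SD of 5. Irf1, Gbp2, Irgm2, Psmb8 and Tap1 were high in CTL, intermediate to high in the trigger groups and low in IPC, APC and ISCH, while B2m means ran only from 6978 to 9818.

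Irf1, the transcription factor, had signals of 5132, 6567, 4818, 5322 and 4385 in the 5 CTL arrays. The ISCH arrays gave 357, 1130, 1118, 1265 and 1228. With IPC they were 1339, 1526, 1862, 1163 and 1209, and with APC 949, 782, 1282, 918 and 1446. No array of these 3 groups reached the lowest CTL array. The APC_TRI arrays, at 4195, 4332, 4896, 4065 and 4260, lay close together and overlapped CTL. The IPC_TRI arrays, at 1158, 2829, 3479, 6014 and 4578, were the most widely spread, with the lowest just below the lowest IPC array and the highest inside the range of CTL. As a description, the log2 difference from CTL was -2.46 ± 0.31 (SE, n = 5 arrays a group) in ISCH, -1.91 ± 0.31 in IPC and -2.30 ± 0.31 in APC, against -0.66 ± 0.31 in IPC_TRI and -0.25 ± 0.31 in APC_TRI. Log2 values here are of the intensity plus 16 after quantile normalisation, which understates the change of dim genes. From the highest mean to the lowest the order was CTL, APC_TRI, IPC_TRI, IPC, APC, ISCH. Of these neighbours APC_TRI and IPC_TRI, and APC and ISCH, were no further apart than the larger of their SDs.

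Gbp2, an interferon-induced guanylate-binding protein, had the widest range of the 7. CTL arrays read 901, 1566, 1136, 1138 and 803, and ISCH arrays 108, 78, 91, 73 and 65. The IPC arrays read 50, 181, 93, 71 and 197, and the APC arrays 85, 84, 49, 95 and 82. All 15 of these ischaemic arrays were below every CTL array. The APC_TRI arrays, at 369, 486, 383, 315 and 340, and the IPC_TRI arrays, at 347, 321, 201, 579 and 548, formed a middle level that overlapped neither CTL nor the 3 lower groups. The fitted difference from CTL was -3.50 ± 0.26 in ISCH (11.3-fold lower), -3.02 ± 0.26 in IPC and -3.40 ± 0.26 in APC, but -1.48 ± 0.26 in IPC_TRI and -1.46 ± 0.26 in APC_TRI. Means of the trigger groups differed by 0.02, well within their SD, and so did those of APC and ISCH (0.09).

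Irgm2, an immunity-related GTPase, showed the same 3 levels. Signals were 1562, 1683, 1540, 1266 and 1012 in CTL, and 142, 302, 135, 159 and 216 in ISCH. They were 243, 317, 321, 254 and 224 in IPC, and 236, 175, 163, 152 and 290 in APC. The trigger arrays stood between, with 932, 668, 627, 908 and 597 in APC_TRI and 478, 1227, 489, 522 and 589 in IPC_TRI. In APC_TRI no array reached CTL, whereas 1 IPC_TRI array, replicate 2, lay inside the CTL range and far above its other 4. The differences from CTL were -2.83 ± 0.25 in ISCH, -2.22 ± 0.25 in IPC, -2.62 ± 0.25 in APC, -1.13 ± 0.25 in IPC_TRI and -0.89 ± 0.25 in APC_TRI. The order of the means was CTL, APC_TRI, IPC_TRI, IPC, APC, ISCH, as for Irf1.

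Psmb8, an immunoproteasome subunit, separated the groups into only 2 levels. CTL arrays read 1091, 1422, 1217, 1184 and 1079, APC_TRI arrays 1210, 1000, 886, 1046 and 762, and IPC_TRI arrays 1453, 682, 965, 1244 and 1043. These 3 groups overlapped throughout. The ischaemic groups were all below them, with 417, 601, 612, 462 and 522 in ISCH, 336, 312, 567, 252 and 502 in IPC, and 558, 403, 270, 270 and 510 in APC. The difference from CTL was -1.13 ± 0.22 in ISCH, -1.54 ± 0.22 in IPC and -1.50 ± 0.22 in APC, against -0.09 ± 0.22 in IPC_TRI and -0.25 ± 0.22 in APC_TRI. Psmb8 is the only one of the 7 whose mean was lower in IPC and APC than in ISCH by more than 0.3, and those differences did not pass the tests below.

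Psmb9, the other immunoproteasome subunit, was dimmer and did not follow Psmb8 in the trigger groups. Its brighter probe set ran from 375 to 567 in CTL, with a mean of 430 ± 78 (SD, n = 5). It ran from 120 to 271 in ISCH, 104 to 297 in IPC, 103 to 213 in APC, 68 to 357 in IPC_TRI and 178 to 384 in APC_TRI. The 5 other groups thus overlapped one another, and only APC_TRI reached into the CTL range. The difference from CTL was -1.14 ± 0.32 in ISCH, -1.30 ± 0.32 in IPC, -1.31 ± 0.32 in APC, -1.33 ± 0.32 in IPC_TRI and -0.84 ± 0.32 in APC_TRI. Its dimmer probe set, at the 38.3 percentile of mean signal, was left out by the filter. That probe set ran from 111 to 454 in CTL and from 13 to 327 in the other groups.

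Tap1, the peptide transporter chain, had CTL signals of 1482, 2291, 2284, 1099 and 1342. ISCH arrays read 516, 532, 613, 493 and 697, IPC arrays 699, 759, 230, 702 and 750, and APC arrays 496, 515, 377, 554 and 646. These 15 arrays were below all CTL arrays, and IPC replicate 3 was well below the other 4 of its group. The APC_TRI arrays, at 1546, 1720, 1207, 1208 and 900, overlapped CTL, while the IPC_TRI arrays, at 588, 704, 451, 1543 and 1254, were split between the CTL range and that of the ischaemic groups. The difference from CTL was -1.44 ± 0.30 in ISCH, -1.39 ± 0.30 in IPC, -1.58 ± 0.30 in APC, -0.88 ± 0.30 in IPC_TRI and -0.28 ± 0.30 in APC_TRI. The second probe set of Tap1 gave larger differences, -2.48 ± 0.40 in ISCH, -2.38 ± 0.40 in IPC, -3.08 ± 0.40 in APC, -1.94 ± 0.40 in IPC_TRI and -1.01 ± 0.40 in APC_TRI. On that set the APC_TRI arrays did not overlap CTL and were all below it.

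B2m, the class I light chain, was the brightest of the 7, at the 98.1 percentile of mean signal, and varied least. Group means ran from 6978 ± 551 (SD, n = 5) in APC to 9818 ± 1682 in ISCH, with 9807 ± 1295 in CTL. On the arrays the range was 7625 to 11047 in CTL, 7687 to 12098 in ISCH, 7484 to 13122 in IPC, 6187 to 7667 in APC, 7134 to 10263 in IPC_TRI and 7026 to 11214 in APC_TRI. On the deposited scale every APC array was below every ISCH array, and every other pair of groups overlapped. After normalisation the APC arrays fell below every CTL array, with a difference of -0.60 ± 0.15, and the other groups lay between -0.34 and -0.14 of CTL.

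Counted against CTL, 6 of the 7 genes were past the call threshold (adjusted p under 0.05) and lower in ISCH, where 4.91% of all 3155 genes were called lower. The count was 6 in IPC (2.09% of all genes), 7 in APC (2.19%), 4 in IPC_TRI (8.75%) and 2 in APC_TRI (4.28%). On the normalised scale, all arrays of the group were below all CTL arrays for 6 genes in ISCH (5.67% of all genes), 6 in IPC (3.80%), 7 in APC (4.12%), 2 in IPC_TRI (4.85%) and 2 in APC_TRI (6.21%). These counts describe the values that led to the choice of the genes, and nothing is read from them. The APC_TRI count rested on single arrays: it was 1 without CTL replicate 1, CTL replicate 2 or APC_TRI replicate 5.

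The comparison of each full protocol with its own trigger asked how hearts differed once the test ischaemia followed the stimulus. Irf1, Gbp2, Irgm2, Psmb8 and Tap1 were lower in APC than in APC_TRI, 5 of the 7, where 8.34% of all genes were called lower. Irf1 fell by 2.05 on the log2 scale (SE 0.31, limma adjusted p = 1.6e-05), or 4.15-fold. Gbp2 fell by 1.95 (SE 0.26, limma adjusted p = 3.2e-06) and Irgm2 by 1.73 (SE 0.25, limma adjusted p = 8.7e-06). In antigen processing, Psmb8 fell by 1.25 (SE 0.22, limma adjusted p = 1.1e-04) and Tap1 by 1.30 (SE 0.30, limma adjusted p = 0.0023). The second probe set of Tap1 fell by 2.07 (SE 0.40). For each of these 5 genes all 5 APC arrays were below all 5 APC_TRI arrays, a separation that 8.30% of all genes had. Psmb9, at -0.47 ± 0.32 (95% interval -1.12 to 0.18), and B2m, at -0.34 ± 0.15 (-0.66 to -0.02), did not pass, with limma adjusted p-values of 0.32 and 0.13. These tests share the APC and APC_TRI arrays with the differences from CTL by which the genes were chosen. They are therefore not separate evidence for those.

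In the ischaemic pair, 4 of the 7 genes were lower in IPC than in IPC_TRI, where 10.6% of all genes were called lower. Gbp2 fell by 1.54 (SE 0.26, limma adjusted p = 1.1e-04), Psmb8 by 1.45 (SE 0.22, limma adjusted p = 1.5e-05), Irf1 by 1.25 (SE 0.31, limma adjusted p = 0.0043) and Irgm2 by 1.09 (SE 0.25, limma adjusted p = 0.0023). The arrays of the pair did not overlap for Gbp2, Irgm2 and Psmb8, 3 of the 7 against 5.83% of all genes. For Irf1 they overlapped through IPC_TRI replicate 1, and without that array the difference was -1.62. Tap1 (-0.51 ± 0.30, interval -1.11 to 0.10), Psmb9 (0.03 ± 0.32, -0.62 to 0.68) and B2m (0.11 ± 0.15, -0.21 to 0.43) did not pass. With the beta-actin ratio as a covariate 2 genes remained past the threshold, Gbp2 and Psmb8, while Irf1 had -0.92 (adjusted p = 0.23) and Irgm2 -1.05 (adjusted p = 0.076). Tests in this pair too share their arrays with the differences from CTL by which the genes were chosen. They are not separate evidence for those differences.

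**Figure D2:**
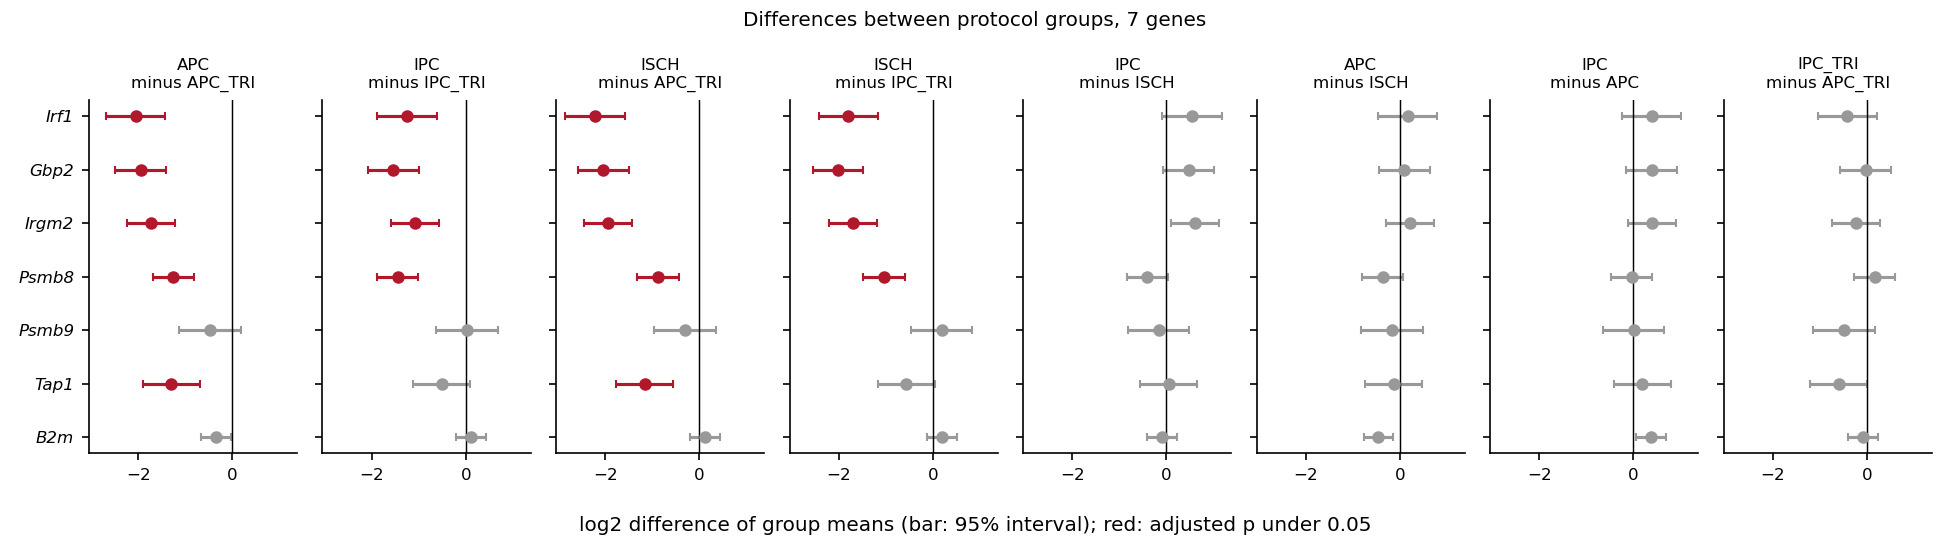
Log2 difference of group means (horizontal axis) with its 95% interval for each of the 7 genes (rows) in the 8 tested contrasts between 2 groups (panels); red marks an adjusted p under 0.05. The 4 contrasts of an ischaemic group with a trigger group hold 4 or 5 called genes each, and the 4 contrasts within ischaemic or within trigger groups hold none.

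Unprotected ischaemia stood in the same relation to the triggers. Against APC_TRI, 5 of the 7 were lower in ISCH (7.61% of all genes called lower). Irf1 fell by 2.21, Gbp2 by 2.04, Irgm2 by 1.94, Tap1 by 1.16 and Psmb8 by 0.88, with limma adjusted p-values from 1.3e-06 to 0.0062. Against IPC_TRI, 4 were lower (8.40% of all genes): Gbp2 by 2.02, Irf1 by 1.80, Irgm2 by 1.70 and Psmb8 by 1.04, with limma adjusted p-values from 2.4e-06 to 8.6e-04. With the beta-actin ratio as a covariate 3 genes passed against APC_TRI, Psmb8 (-0.44, adjusted p = 0.35) and Tap1 (-0.90, adjusted p = 0.18) being lost, and Psmb8 was lost against IPC_TRI (-0.53, adjusted p = 0.27). ISCH enters both of these contrasts, so they are not independent of each other. Each is also a difference between contrasts with CTL by which the genes were chosen, so its p-values are not separate evidence for those.

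Whether preconditioning changed these genes in hearts that then met ischaemia was asked by comparing IPC and APC with ISCH. By limma 0 of the 7 passed in IPC minus ISCH, with 1 at an unadjusted p under 0.05 (0.0951% of all genes were called lower, and 317 of the 3155 genes had such an unadjusted p). That 1 was Irgm2, at 0.61 ± 0.25 with an interval of 0.11 to 1.12. For Irf1 the difference was 0.55 ± 0.31 (-0.09 to 1.18), for Gbp2 0.48 ± 0.26 (-0.06 to 1.02) and for Psmb8 -0.41 ± 0.22 (-0.85 to 0.03). The second Irf1 probe set had 0.35 ± 0.31 (-0.27 to 0.98). Irf1 was low in ISCH replicate 1, at 357.2 where the rest of ISCH ran from 1118.1 to 1264.8. By limma 0 passed in APC minus ISCH too, with 1 at an unadjusted p under 0.05 (0.127% of all genes called lower, 12.0% with such an unadjusted p). That 1 was B2m, at -0.46 ± 0.15 (-0.77 to -0.14, adjusted p = 0.21), and with array weights it passed (-0.50, adjusted p = 0.038). The intervals of the other 6 reached from -0.82 (Psmb9) to 0.80 (Irf1) and each held 0. With 5 arrays a group, differences inside a gene's own interval, such as -0.81 to 0.07 for Psmb8, are not excluded.

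Differences between the kinds of preconditioning were tested in the same way. In IPC minus APC limma called 0 of the 7, and 0 of all genes, with 1 of the 7 at an unadjusted p under 0.05, as 2.57% of all genes were. It was B2m, at 0.36 ± 0.15 (0.05 to 0.68), whose 5 IPC arrays were above all 5 APC arrays on the normalised scale, as was so for 0.317% of all genes. In IPC_TRI minus APC_TRI limma called 0 of the 7 (0.222% of all genes called lower), with 1, Tap1, at an unadjusted p under 0.05 (14.5% of all genes). The values ran from -0.60 (Tap1) to 0.16 (Psmb8). Whether the step from trigger to full protocol differed between the kinds was tested by an interaction term. Limma called 0 of the 7 there, with 1, B2m, at an unadjusted p under 0.05 (0.0634% of all genes called either way, 8.59% with such an unadjusted p). Irf1 had 0.80 ± 0.44 (-0.09 to 1.70) and Tap1 0.79 ± 0.42 (-0.06 to 1.64), so the call of Tap1 in the anaesthetic pair and not in the ischaemic pair is not shown to be a difference between them. The second Tap1 probe set had an interaction of 1.64 ± 0.57 (0.48 to 2.79), whose interval leaves out 0 but whose limma adjusted p was 0.46.

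**Figure D3:**
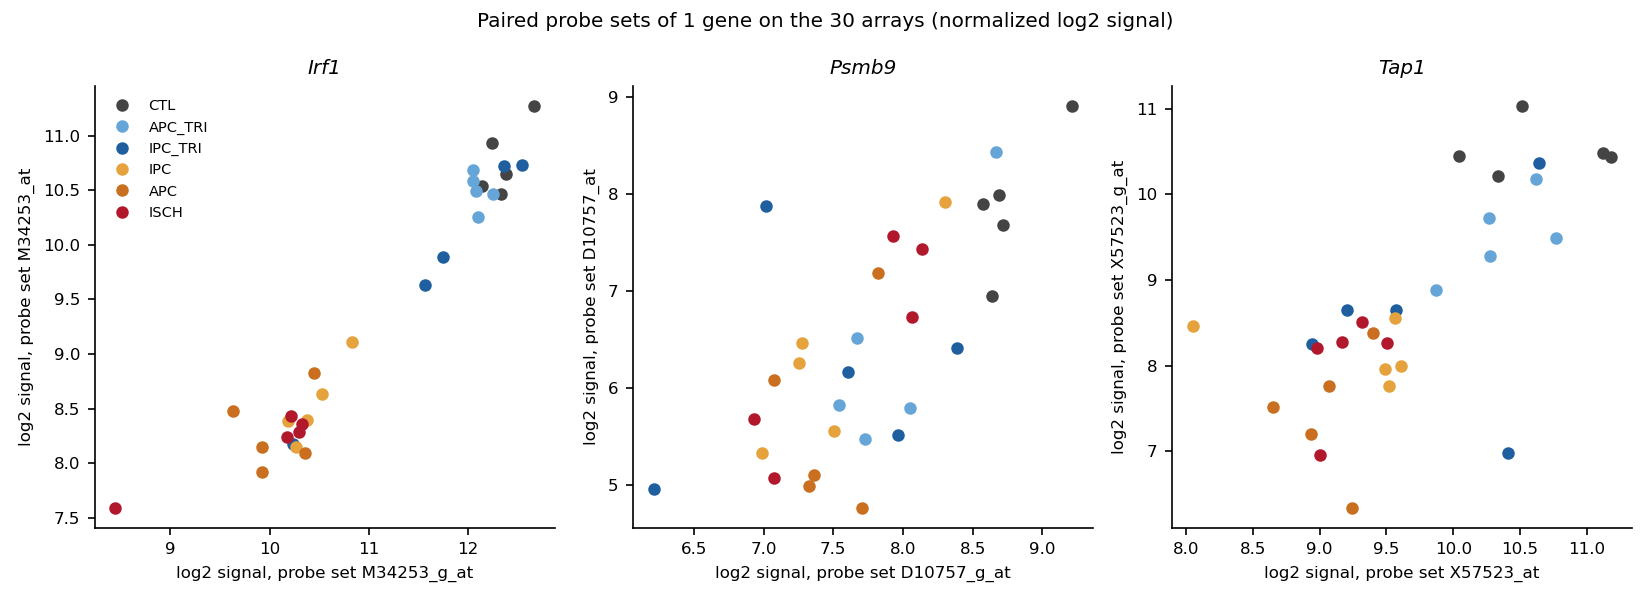
Normalised log2 signal of the paired probe sets of Irf1, Psmb9 and Tap1, 1 set on each axis, with 1 point per array coloured by group. The Irf1 pair follows a line over the 30 arrays (r = 0.97), while the Tap1 pair scatters within the groups.

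Where a gene had 2 probe sets they could be compared over the 30 arrays, as a description of points that share the 6 groups. The Irf1 pair correlated at 0.967, and at 0.834 after each group's mean was taken off. For Psmb9 the values were 0.712 and 0.565, and for Tap1 0.716 and 0.144. The paired sets of Tap1 thus gave the same order of high and low groups but not of arrays within a group. In IPC_TRI they disagreed on single arrays, and the second set ran from 163 to 1283 there.

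Between genes the correlation over 30 arrays was highest for Gbp2 and Irgm2, at 0.90, and came almost wholly from the groups, since with group means removed it was 0.03. Psmb8 and Psmb9 behaved the other way: 0.60 over all arrays and 0.68 with group means removed, the highest of the 21 pairs. Tap1, which lies between them on chromosome 20, had 0.04 with Psmb8 and 0.10 with Psmb9 with group means removed. Gbp2 and Tap1 had 0.54 within groups, Psmb9 and B2m 0.45, and Psmb8 and B2m 0.42. These points share arrays and normalisation, and no p-value is given.

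Around the 7 genes, other parts of the class I pathway were split in the comparison with the triggers. Of 29 listed genes 15 were on the array and 14 were tested. In APC minus APC_TRI 4 fell, 3 rose and 7 did not pass, with a median of -0.27 against -0.01 over all genes. Of all genes 8.34% were called lower there and 8.91% higher. Tap2, the partner chain of Tap1, fell by 0.84 (SE 0.19), and the class I heavy chain gene RT1-CE16 by 1.29 (SE 0.28). RT1-CE16 had its highest mean signal in APC_TRI (19054), with 12471 in CTL and 12218 in ISCH. Another class I heavy chain gene, RT1-CE12, did not pass in APC minus APC_TRI. RT1-S3 and RT1-M3-1, class I genes named after their values were seen, fell by 1.70 and 1.87. The 3 that rose, Hspa5, Pdia3 and Canx, also named after their values were seen, encode chaperones of the endoplasmic reticulum. In IPC minus IPC_TRI 4 fell (Tap2, Calr, RT1-S3 and RT1-M3-1) and the same 3 chaperone genes rose, with a median of -0.16. Of all genes 10.6% were called lower there and 12.2% higher. With the beta-actin ratio as a covariate 0 of the listed genes fell and 1 rose. Rat class I heavy chain genes are near-identical copies, and their probe sets may share signal. Psme1 and Psme2, the proteasome activator genes, had -0.25 ± 0.20 and -0.27 ± 0.21 in the anaesthetic pair and -0.32 ± 0.20 and -0.42 ± 0.21 in the ischaemic pair, none of them past the threshold. In ISCH minus CTL, given as a description, Psme2 had -1.24 ± 0.21 and Tap2 -0.74 ± 0.19, while Psme1 had 0.38 ± 0.20 and Hspa5 0.58 ± 0.17.

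**Figure D4:**
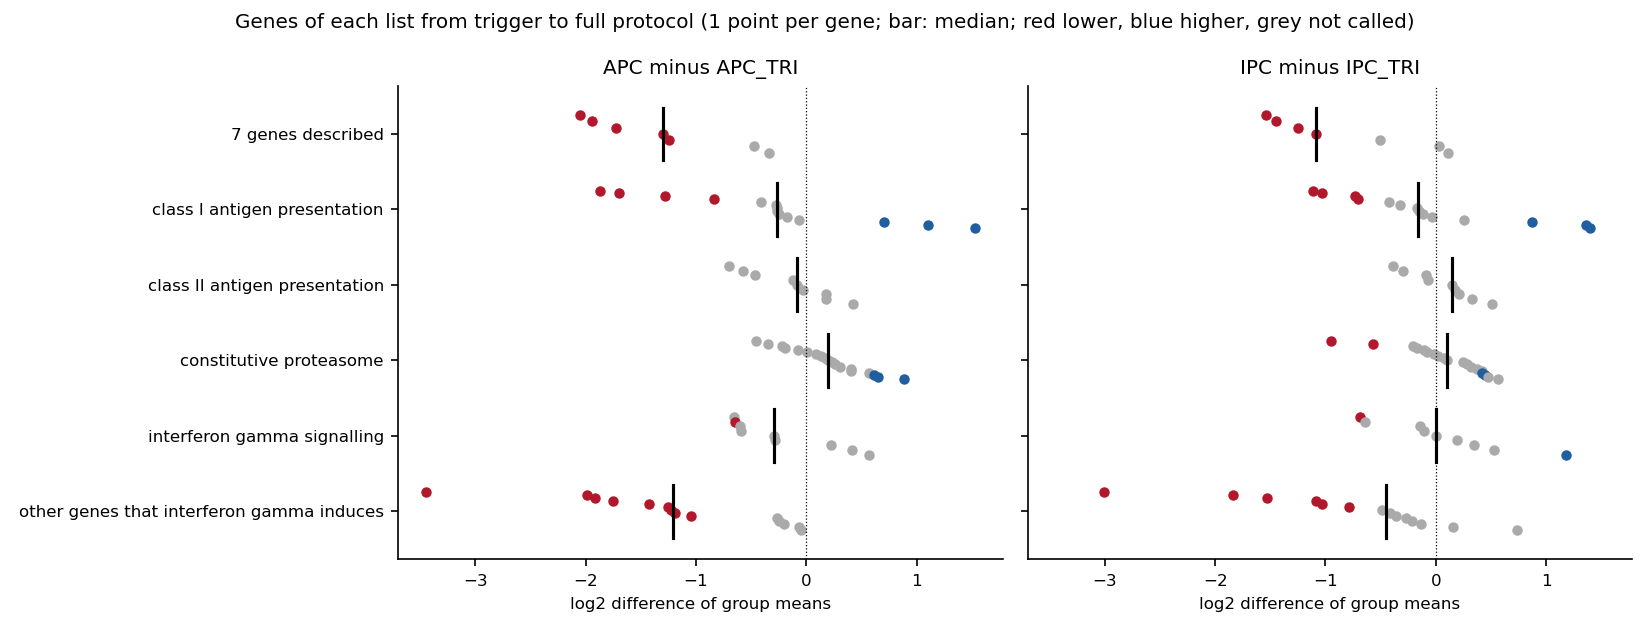
Log2 difference of each tested gene (points) in the full protocol against its trigger, for the 7 genes and 5 lists (rows), in the anaesthetic (left) and ischaemic (right) pair; bars are medians, red marks genes called lower, blue higher and grey not called. The list of other genes that interferon gamma induces has its median at -1.21 in the anaesthetic pair, and the lists of class II and constitutive proteasome genes lie near 0.

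Genes of the constitutive proteasome, which the immunoproteasome subunits enter, had medians close to 0. The 26 listed genes gave 19 on the array, all tested. In APC minus APC_TRI 0 fell and 3 rose (Psmc1, Psmc3 and Psmc5, named after their values were seen), with a median of 0.20, where 8.34% of all genes were called lower and 8.91% higher. In IPC minus IPC_TRI 2 fell (Psmb4 and Psmd4) and 2 rose (Psma1 and Psmc3), with a median of 0.11, where 10.6% of all genes were called lower and 12.2% higher. All but Psmb4, at -0.95 ± 0.17, were named after their values were seen. Psmb5, whose place in the proteasome Psmb8 takes, had 0.26 ± 0.17 in the anaesthetic pair and 0.32 ± 0.17 in the ischaemic pair and passed in neither. The count of 3 was 7 with array weights and 5 without APC_TRI replicate 5, and the calls of 2 in the ischaemic pair went to 0 each with the beta-actin ratio as a covariate.

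Interferon gamma signalling lies upstream of the 7 genes. Of 15 listed, 11 were on the array and 9 were tested. The receptor chain gene Ifngr1 fell by 0.65 (SE 0.23, limma adjusted p = 0.049) in APC minus APC_TRI, the only 1 of 9 that passed, a share near the 8.34% of all genes called lower. The call was lost in 8 of the 10 fits that left out 1 array of the pair, all but those without APC replicate 5 or APC_TRI replicate 4. Over the other settings the count in that contrast ran from 0 to 4. It fell by 0.69 (SE 0.23) in IPC minus IPC_TRI, where Socs3, a feedback inhibitor of the pathway, rose by 1.18 (SE 0.33). Jak2, the kinase bound to the receptor, had -0.60 ± 0.25 and -0.14 ± 0.25 and passed in neither. Against CTL, as a description, Ifngr1 had -1.29 ± 0.23 in ISCH, -1.50 ± 0.23 in IPC and -1.19 ± 0.23 in APC. Jak2 had -1.26 ± 0.25, -1.04 ± 0.25 and -1.04 ± 0.25 there. The median of the 9 was smaller, at -0.65 in ISCH, -0.39 in IPC and -0.54 in APC. Ifng itself was on the array but too dim to be tested, with group means from 40.1 to 104.

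Most of the other genes that interferon gamma induces fell in the anaesthetic pair. Of 33 listed, 17 were on the array and 14 were tested, and in APC minus APC_TRI 9 fell, 0 rose and the median was -1.21, where 8.34% of all genes were called lower and their median was -0.01. In IPC minus IPC_TRI 6 fell, 0 rose and the median was -0.45, where 10.6% of all genes were called lower and their median was 0.01, and with the beta-actin ratio as a covariate 3 fell. Cxcl10, a chemokine for T cells, fell in both, with log2 differences of -3.45 ± 0.31 and -3.01 ± 0.31. Icam1, an adhesion molecule, fell in both (-1.91 and -1.53), and so did Ccl2, a chemokine for monocytes (-1.42 and -1.03). Gch1, the first enzyme of tetrahydrobiopterin synthesis, fell by 1.22 in the anaesthetic pair and had -0.36 ± 0.28 in the ischaemic pair. Of 12 listed genes of the interferon-induced GTPase families only Mx1 and Mx2 were on the array. Mx1 (-2.52 and -1.70) and Mx2 (-3.64 and -2.14) fell in both pairs, and neither passed in the ischaemic pair with the beta-actin ratio as a covariate.

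Class II antigen presentation, the route for peptides from outside the cell, which interferon gamma also induces, held no gene that passed. Of its 13 listed genes 10 were on the array and 9 were tested, and limma called 0 in each of the 14 contrasts. Over all genes 8.34% were called lower and 8.91% higher in APC minus APC_TRI, and 10.6% and 12.2% in IPC minus IPC_TRI. With 9 genes tested, a count of 0 lies near those shares. At an unadjusted p under 0.05 there were 3 in APC minus APC_TRI (31.3% of all genes) and 0 in IPC minus IPC_TRI (35.2%). In the anaesthetic pair 1 passed with a fit of that pair alone or without APC replicate 5. Cd74, the invariant chain, had -0.03 ± 0.16 and 0.18 ± 0.16, and RT1-Da -0.08 ± 0.25 and -0.09 ± 0.25.

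The genes most like the 7 were sought by their correlation over 30 arrays with the mean of the standardised values of the 7, among 3148 other genes. The nearest 8 were Mx1 (0.94), Irf7 (0.94), Cxcl10 (0.93), Rsad2 (0.93), Ifitm3 (0.92), Oas1a (0.91), Mx2 (0.90) and Eif2ak2 (0.90), where 95% of genes were below 0.46. With group means removed they were RT1-CE12 (0.86), Eif2ak2 (0.75), Itga1 (0.74), Irf7 (0.73), Mx1 (0.65), Ifitm3 (0.65), Oas1a (0.62) and Lgals3bp (0.61), where 95% of genes were below 0.37. Itga1 had -0.02 over all arrays. The lists share Mx1, Irf7, Ifitm3, Oas1a and Eif2ak2. All points share the arrays and their normalisation. Which interferon, if any, these genes and the 7 responded to was not tested, so the pattern is not shown to be particular to interferon gamma.

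In RNA from whole ventricle, fewer cells of a type and less RNA per cell cannot be told apart, and white blood cells, endothelium and heart muscle can all express these genes. Of 16 lymphocyte and natural killer cell markers 14 were on the array and none was at 0. Their summed signal ran from 1321 to 1514 in CTL, 1413 to 1765 in ISCH, 1181 to 1634 in IPC, 1160 to 2061 in APC, 1430 to 3395 in IPC_TRI and 1563 to 1989 in APC_TRI. The median was 1428 in CTL, 1426 in ISCH, 1289 in IPC, 1320 in APC, 1806 in IPC_TRI and 1627 in APC_TRI. Of 14 myeloid markers 10 were on the array, none at 0, with medians of 1678 in CTL, 1787 in ISCH, 1847 in IPC, 1771 in APC, 2423 in IPC_TRI and 2038 in APC_TRI. Of the 5 myeloid markers tested, Cd14 was called lower in both full protocols against their triggers and in ISCH against both triggers, and lower than CTL in ISCH, IPC and APC. C1qb was called higher in APC minus APC_TRI and in IPC_TRI minus CTL. Of the 7 lymphocyte and natural killer cell markers tested, Cd247 was called lower in IPC minus IPC_TRI and Lck higher in APC minus APC_TRI. Cd247 and Cd8b were called higher in IPC_TRI than in CTL. Over all genes 8.34% were called lower and 8.91% higher in APC minus APC_TRI, and 10.6% and 12.2% in IPC minus IPC_TRI. The shares called lower were 7.61% in ISCH minus APC_TRI, 8.40% in ISCH minus IPC_TRI and 4.91% in ISCH minus CTL. Against CTL they were also 2.09% in IPC, 2.19% in APC, 8.75% in IPC_TRI and 4.28% in APC_TRI. Shares called higher were 6.94% in IPC_TRI minus CTL and 3.61% in APC_TRI minus CTL. They were 8.56% in ISCH minus IPC_TRI and 7.42% in ISCH minus APC_TRI. The part of these cells in the differences between triggers and full protocols was not tested. Of 7 endothelial markers 4 were on the array, with medians between 1050 and 1378 in the 6 groups, and 6 fibroblast markers had medians from 23325 in CTL to 54440 in ISCH. Among the endothelial markers Pecam1 was called lower in IPC_TRI than in CTL, and Vwf higher in ISCH than in APC_TRI. Of the 5 fibroblast markers tested, 4 (Col1a1, Col1a2, Col3a1 and Dcn) were called higher in ISCH than in CTL (3.39% of all genes). Dcn was called higher than CTL in both triggers and lower in both full protocols against them. Col1a1 was called higher in IPC minus IPC_TRI, Col3a1 in APC minus APC_TRI, and both in ISCH against each trigger. Among 7 cardiomyocyte markers, Myh6 and Ryr2 were called lower than CTL in ISCH and IPC_TRI. Pln was called lower than CTL in both triggers and higher in both full protocols against them.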

How the data were processed

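The deposited values are intensity values, 1 for each of 8799 probe sets on 30 arrays, scaled to a common trimmed mean by the authors, as the values show. The software that made them is not given in the sources used here. Groups follow the labels' protocol names. No test included the 59 control probe sets. Of the others, 7006 carried 1 symbol, 308 several and 1426 none, and 1 probe set with several symbols that include B2m was not used.

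Intensities plus 16 were put on the log2 scale and quantile normalised, and the dimmest 40% of probe sets by mean were dropped, leaving 5244; 3155 genes with a single symbol were counted. A model with 1 mean per group and 24 residual degrees of freedom was fitted in R 4.3.3 using limma 3.58.1 (eBayes with trend), and p-values were adjusted by Benjamini-Hochberg over all probe sets of each contrast. Intervals are 95% intervals of that fit. The fit was tested on simulated data. Figures and promoter searches used Python 3.11.15, numpy 2.4.6, pandas 2.3.3 and matplotlib 3.10.9.

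The 7 genes, the lists and the tests were chosen with earlier results of these data known. The rule named all 7, the 8 genes most like them, up to 4 genes of each list with the highest mean signal, and Tap2, Tapbp, Psmb10, Psmb5, Psmb6, Psmb7, Psme1, Psme2, Jak2, Ifngr1, Ifng, Cd74, Cxcl10, Gch1 and Mx1 where measured. 1 further item of the rule is not reported here. Alternatives were pseudocounts of 1 and 64, no filter, 60% left out, median centring, the deposited values without quantile normalisation, a replicate block, only the groups of the contrast, the mean over probe sets, array weights, IPC_TRI 5 and ISCH 1 left out, the beta-actin ratio or the spike signal as a covariate, and each array left out in turn.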

Additional observations from a re-analysis of the deposited data

Results flagged for a closer look

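Signals in this section are as deposited, but the gaps were taken on the normalised log2 scale. Among 60 groups of 5 arrays (10 probe sets in 6 groups), 8 held an array whose gap to the nearest other array was more than 0.71 of the group's range, where chance gives about 1 in 20. ISCH replicate 1 was the low array in 3 of them: Irf1 at 357.2 (the other 4 from 1118.1 to 1264.8), the second Irf1 probe set at 202.5 (288 to 315.6), and the second Tap1 probe set at 128.4 (277.9 to 348.5). With IPC_TRI replicate 5 and ISCH replicate 1 left out together, every count of called genes in the 14 contrasts stayed within 1.5 times its value. Irf1 in APC_TRI replicate 3 was high, at 4895.9 (4065 to 4332.1). Irgm2 in IPC_TRI replicate 2 was high, at 1226.8 (478.4 to 588.6). Psmb9 in CTL replicate 2 was high, at 567.4 (375.3 to 415.8). Tap1 in IPC replicate 3 was low, at 230.3 (699.2 to 759.4), while its second probe set showed no such gap there. B2m in IPC replicate 5 was high, at 13121.7 (7484.4 to 8584.8).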

How the results depend on the processing

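Of 819 values of the 7 genes in the tested contrasts under other settings, 795 kept their direction and their side of the threshold, 5 were no longer past it, 1 passed newly and 18 changed sign. Of 700 values with an array left out, 675 kept both and 25 changed sign. No value that changed sign was past the threshold before or after. The 18 were Irf1 in APC minus ISCH (-0.20 without IPC_TRI 5 and ISCH 1, -0.095 with array weights, -0.20 with the spike signal as a covariate), Gbp2 in APC minus ISCH (-0.061 with the values as deposited, -0.0098 with the beta-actin ratio), Tap1 in IPC minus ISCH (-0.088 with array weights) and B2m in IPC minus ISCH (0.011 with median centring). Psmb8 turned in IPC minus APC (0.16 with the beta-actin ratio), in IPC_TRI minus APC_TRI (-0.042 with median centring) and in the interaction (0.059 with the beta-actin ratio, 0.019 with median centring). Psmb9 turned in IPC minus IPC_TRI (-0.021 with array weights, -0.0036 with pseudocount 64, -0.044 with the spike signal, -0.18 as deposited) and in IPC minus APC (-0.10 with array weights, -0.0020 with median centring, -0.0079 as deposited). With single arrays left out, the values that changed sign ran from -0.20 to 0.27 for Irf1 in APC minus ISCH, -0.22 to 0.010 for B2m and -0.037 to 0.35 for Tap1 in IPC minus ISCH, -0.18 to 0.086 for Psmb8 and -0.20 to 0.12 for Psmb9 in IPC minus APC, -0.28 to 0.26 for Psmb9 and -0.023 to 0.17 for B2m in IPC minus IPC_TRI, -0.19 to 0.14 for Gbp2 and -0.18 to 0.0014 for B2m in IPC_TRI minus APC_TRI, and -0.12 to 0.43 for Psmb9 in ISCH minus IPC_TRI. The beta-actin ratio as a covariate took the count of called genes from 4 to 2 in IPC minus IPC_TRI, from 5 to 3 in ISCH minus APC_TRI and from 2 to 1 in APC_TRI minus CTL. Array weights took APC minus ISCH from 0 to 1, and fitting the contrast's own groups alone took IPC_TRI minus CTL from 4 to 2. The causes were not tested. With single arrays left out the count ran from 1 to 2 in APC_TRI minus CTL, 3 to 5 in IPC_TRI minus CTL, 5 to 6 in ISCH minus CTL and 6 to 7 in APC minus CTL, and was the same in the other contrasts. No pairing by replicate number was seen, though this cannot show that hearts were not paired. Of 75 pairs of arrays with the same number in different groups, 9 had deviations that correlated above 0.1, with a median of 0.006. Among 300 pairs with different numbers in different groups 29 did, with a median of -0.001. With the replicate number as a block the counts were 4 in IPC minus IPC_TRI and 5 in APC minus APC_TRI, as without it, and no other count changed. Dim signals limit Psmb9, and 5 arrays a group limit all contrasts.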
